A study of Mus musculus with 16 samples.

Results

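The Dlk1-Dio3 region is an imprinted cluster of genes on mouse chromosome 12, described here across haematopoietic stem cells (HSC), induced pluripotent stem cells (iPSC) and embryonic stem cells (ESC). Its members were taken as every probe set whose single gene symbol was Meg3, Rian, Mirg, Dlk1, Rtl1 or Dio3, which gave 4 of the 18193 genes with such a probe set, by 19 of the 45101 probe sets of the array. Meg3 had 11 of them, Rian had 4, and Mirg and Dlk1 had 2 each. Rtl1 and Dio3 had 0 and were not analysed here, so the protein-coding side of the region is represented by Dlk1 alone. The region was chosen by its measured levels in iPSC, ESC and HSC, so differences between those 3 cell classes, and between transplanted and steady-state HSC, are described without a test of the members. Age was tested.

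In an imprinted cluster, each gene is read from the chromosome of only 1 parent, and the choice is held by DNA methylation at a control element between the genes. From the maternal chromosome the Dlk1-Dio3 region produces long noncoding RNAs, Meg3 (also called Gtl2), Rian and Mirg, which also carry small nucleolar RNAs and a large group of microRNAs. From the paternal chromosome it produces the proteins Dlk1, a transmembrane relative of the Notch ligands, Rtl1, derived from a retrotransposon, and Dio3, the deiodinase that inactivates thyroid hormone. The maternal RNAs are known as a point at which mouse iPSC lines can differ from ESC, and Meg3 has been studied as a gene of long-term HSC.

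The series held 16 arrays. Steady-state HSC were sorted from bone marrow of young male mice of 3 to 4 months and of aged male mice of 21 to 24 months, with 3 arrays each. Transplanted HSC were sorted from recipients of young or of aged marrow, with 2 arrays each, and iPSC came from young or from aged haematopoietic cells, also with 2 arrays each. There were 2 ESC arrays, 1 of the Open Biosystems cells and 1 of the Primogenix cells. All groups were wild type C57Bl6. The iPSC and ESC were grown on feeder layers of mouse embryonic fibroblasts (MEF), so each of those RNA samples may hold some feeder RNA. Age was not given for the transplanted groups, and the sex of the transplanted, iPSC and ESC samples and the state of the recipients were not in the labels. Apart from the ESC, arrays within a group carry the label of biological replicates, without naming the animals or cultures, and p-values measure the spread between arrays. In bulk RNA of this kind, fewer cells expressing a gene and less RNA per cell cannot be told apart.

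Values are log2 of the deposited intensity, and levels were compared only within a probe set. In the names of probe sets, _s_at and _x_at mark those with probes that may match other transcripts, and _a_at those shared by transcripts of the same gene. The median intensity per array lay between 43.4 and 51.8. The cell classes carried their defining markers: the mean over 16 pluripotency genes was 10.49 to 10.58 in iPSC, 10.66 to 10.74 in ESC and 4.12 to 5.25 in HSC. The mean over 13 measured HSC markers was 10.86 to 11.15 in steady-state HSC, 9.10 to 9.65 in transplanted HSC and 5.25 to 5.31 in iPSC and ESC.

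The genes lie in the order Dlk1, Meg3, Rtl1, Rian, Mirg, Dio3, per the RefSeq annotation of GRCm38. The reference places 54 microRNA hairpins between the start of Meg3 and the end of Mirg on the strand of Meg3. Of these, 1 lies within Meg3, 13 within the span of Rtl1, 3 within Rian and 10 within Mirg. The array's member probe sets measure the host RNAs and not these microRNAs. The mature sequences of 4 of them, 1 from each span, are printed from RefSeq (GRCm38.p6) to show what the maternal RNAs carry, with the seed (bases 2 to 8, the part that pairs with a target) in capitals. None of them shares its seed with another.
miR-770-3p, within Meg3: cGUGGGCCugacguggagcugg
miR-127-3p, antisense to Rtl1: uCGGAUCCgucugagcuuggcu
miR-370-3p, within Rian: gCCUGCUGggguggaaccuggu
miR-410-3p, within Mirg: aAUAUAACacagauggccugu

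The windows of 300 bases around the annotated starts of Meg3 and Rian are printed because their probe sets were low together in iPSC. Each window runs from 250 bases before the start to 50 after it, on the plus strand of GRCm38.p6, from RefSeq. Capitals mark matches to CCAAT, the cyclic-AMP response element TGACGTCA and the TATA box TATAAA, searched on both strands (as ATTGG, TGACGTCA and TTTATA on the other).
Meg3, chr12:109540746-109541045: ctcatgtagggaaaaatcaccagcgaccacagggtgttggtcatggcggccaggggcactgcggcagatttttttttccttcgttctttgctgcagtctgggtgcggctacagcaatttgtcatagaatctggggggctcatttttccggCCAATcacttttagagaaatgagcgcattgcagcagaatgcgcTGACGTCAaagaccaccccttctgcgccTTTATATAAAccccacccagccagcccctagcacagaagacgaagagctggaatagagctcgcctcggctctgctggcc
Rian, chr12:109603695-109603994: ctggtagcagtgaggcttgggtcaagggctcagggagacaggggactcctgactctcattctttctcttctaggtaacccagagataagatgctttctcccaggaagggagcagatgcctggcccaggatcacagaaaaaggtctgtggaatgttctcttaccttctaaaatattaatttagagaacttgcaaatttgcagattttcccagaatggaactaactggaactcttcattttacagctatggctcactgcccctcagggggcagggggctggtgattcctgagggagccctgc
The Meg3 window held 1 CCAAT beginning 100 bases before the start, 1 cyclic-AMP response element beginning 57 bases before it, and TATA matches on both strands that overlap each other, beginning 25 and 29 bases before it. Among 32851 RefSeq start windows of the same length, 1.79% held the response element, 13.6% a TATA match and 37.4% a CCAAT match. The Rian window, and that of a second annotated Meg3 start, held 0 matches to the 3 motifs, and the Mirg window held 1 CCAAT. These are matches of letters and not measured binding sites.

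For each gene, the brightest probe set by its mean across all 16 arrays was taken as the leading one. For Meg3 (1452905_at), the young steady-state HSC arrays read 8.50, 9.82 and 9.95 and the aged ones 9.17, 9.80 and 10.41. The ESC arrays read 9.14 (Open Biosystems) and 10.22 (Primogenix). On this probe set, these arrays share 1 high range, and the groups overlap within it. The young-origin iPSC arrays read 6.05 and 6.05 and the aged-origin ones 6.74 and 5.99. The young transplanted HSC arrays read 4.95 and 4.91 and the aged ones 5.02 and 7.02. Every iPSC and transplanted array therefore lay below every steady-state HSC and ESC array, with a gap between 7.02 and 8.50. Several other Meg3 probe sets were higher in ESC than in every steady-state HSC array, for example 1452183_a_at by 2.20 in the mean.

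By group mean the order of leading Meg3 levels was aged steady-state HSC at 9.79 ± 0.62 (SD, n = 3), ESC at 9.68 ± 0.76 (SD, n = 2) and young steady-state HSC at 9.42 ± 0.80 (SD, n = 3). Then came aged-origin iPSC at 6.36 ± 0.53, young-origin iPSC at 6.05 with an SD of 0.00174, aged transplanted HSC at 6.02 ± 1.42 and young transplanted HSC at 4.93 ± 0.03 (SD, n = 2 each). Neighbours in the first 3 places differed by less than their spread, and so did aged-origin iPSC and aged transplanted HSC from the young-origin iPSC between them. The young transplanted arrays lay below both aged transplanted arrays, but the spread of the aged pair was larger than the difference.

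**Figure D1:**
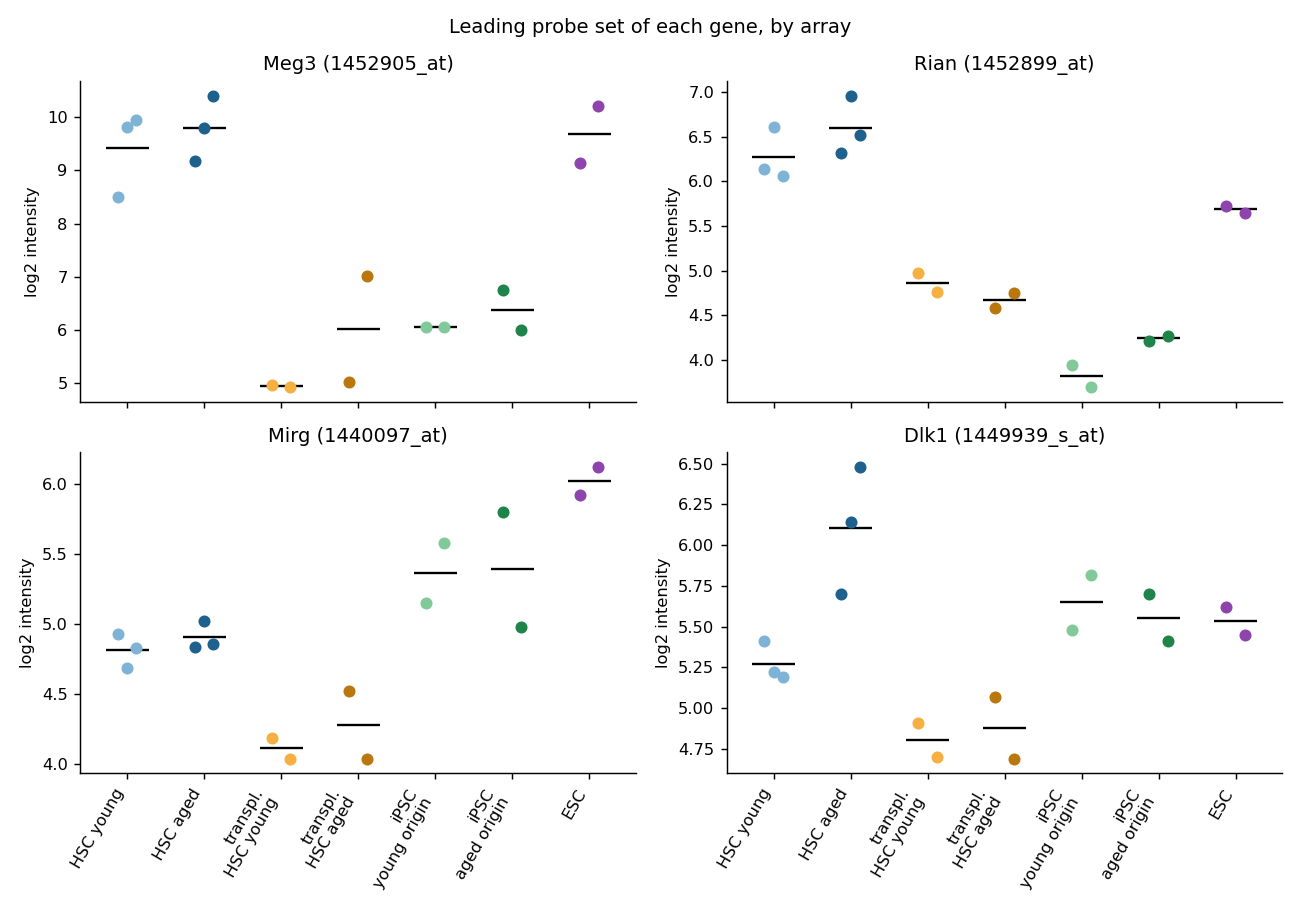
Log2 intensity of the leading probe set of Meg3, Rian, Mirg and Dlk1 in each of the 16 arrays. Each point is 1 array, bars are group means, and each panel has its own y axis. Meg3 read 8.50 to 10.41 in steady-state HSC and ESC and 4.91 to 7.02 in transplanted HSC and iPSC, while Dlk1 in ESC lay inside the iPSC range.

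Meg3 and Rian were low in iPSC relative to ESC. Across the whole array, 57 of the 33778 probe sets above the filter on dim values (the lowest 25% by mean left out) were at least 2-fold apart with no overlap between the 4 iPSC and the 2 ESC arrays, which is 0.169% of them. Of these, 46 were lower in iPSC (0.136%) and 11 were higher (0.0326%). The region contributed 11 of its 16 probe sets above the filter to the lower group and 0 to the higher group. Among the 11, Rian 1428055_at and 1452899_at had every iPSC array under its 25th percentile, so they passed the filter through the ESC arrays. With these counted, the region made up 23.9% of all probe sets lower in iPSC and 6 of the 10 with the largest differences. This pattern is what the region was chosen for, so the shares describe it and give no test of it.

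Meg3, the maternal long noncoding RNA, was at least 2-fold lower in iPSC by 7 of its 11 probe sets. The leading probe set averaged 6.21 ± 0.35 (SD, n = 4) in iPSC and 9.68 ± 0.76 (SD, n = 2) in ESC, a difference of -3.47 or 11.1-fold. It was -4.01 when the Open Biosystems array was left out and -2.93 when the Primogenix array was left out. The differences of the 3 other strongest probe sets were -3.95 (1439380_x_at), -3.47 (1452183_a_at) and -2.82 (1426758_s_at). Further Meg3 probe sets gave -1.92 (1428764_at), -1.58 (1452906_at) and -1.44 (1429257_at). The remaining 4 did not reach 2-fold: 1436057_at at -0.51, 1428765_at at -0.68 and 1436713_s_at at -0.78, the latter pair under the filter, were lower without overlap, and 1429256_at overlapped with a difference of 0.12. The probe sets of Meg3 therefore gave the same direction in 10 of 11 cases but sizes from 1.42-fold to 15.5-fold among those 10.

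Rian, the maternal RNA that hosts small nucleolar RNAs, was at least 2-fold lower in iPSC by all 4 of its probe sets. The largest difference of the region, and of the whole array in this direction, was that of 1428055_at. It read 7.07 and 8.44 in ESC, 3.40 and 3.45 in young-origin iPSC and 3.39 and 3.04 in aged-origin iPSC, a difference of -4.44 or 21.6-fold. All 4 iPSC arrays were under their own 25th percentile for this probe set, so this fold sets a clear ESC signal against values at the dim end of the array. The leading Rian probe set (1452899_at) read 5.72 and 5.65 in ESC, 3.94 and 3.69 in young-origin iPSC and 4.21 and 4.27 in aged-origin iPSC, a difference of -1.66 with the iPSC arrays again under their 25th percentile. The other Rian probe sets differed by -2.73 (1440001_at) and -1.48 (1427580_a_at).

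Mirg, the most distal of the 3 maternal RNAs and the host of a dense microRNA cluster, was lower in iPSC by less than 2-fold. Its leading probe set (1440097_at) read 5.92 and 6.12 in ESC, 5.15 and 5.58 in young-origin iPSC and 5.80 and 4.98 in aged-origin iPSC, so the arrays did not overlap and the difference was -0.65. The highest iPSC array lay 5.80 against 5.92 for the lower ESC array. The other Mirg probe set (1457030_at) differed by -0.75 and was under the filter. Of the member probe sets above the filter, the smallest difference past the 2-fold bound was thus -1.44 for Meg3 and the nearest one short of it -0.65 for Mirg.

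Dlk1, the paternally expressed membrane protein, was not lower in iPSC. Its leading probe set (1449939_s_at) read 5.62 and 5.45 in ESC, 5.48 and 5.82 in young-origin iPSC and 5.70 and 5.41 in aged-origin iPSC, a difference of 0.07 with the arrays overlapping. The other Dlk1 probe set (1442724_at) was 0.41 higher in iPSC, at 4.72 to 4.87 against 4.28 and 4.51, without overlap and short of 2-fold. Dlk1 levels were modest in ESC too: the leading probe set lay near the ESC array medians of 5.52. The other probe set lay close above the 25th percentiles of 4.26 and 4.25, which leaves little room for a lower reading in iPSC. The maternal RNAs and the paternal gene of the region thus gave different readings in the same arrays, from different starting levels. The difference between them was not tested.

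**Figure D2:**
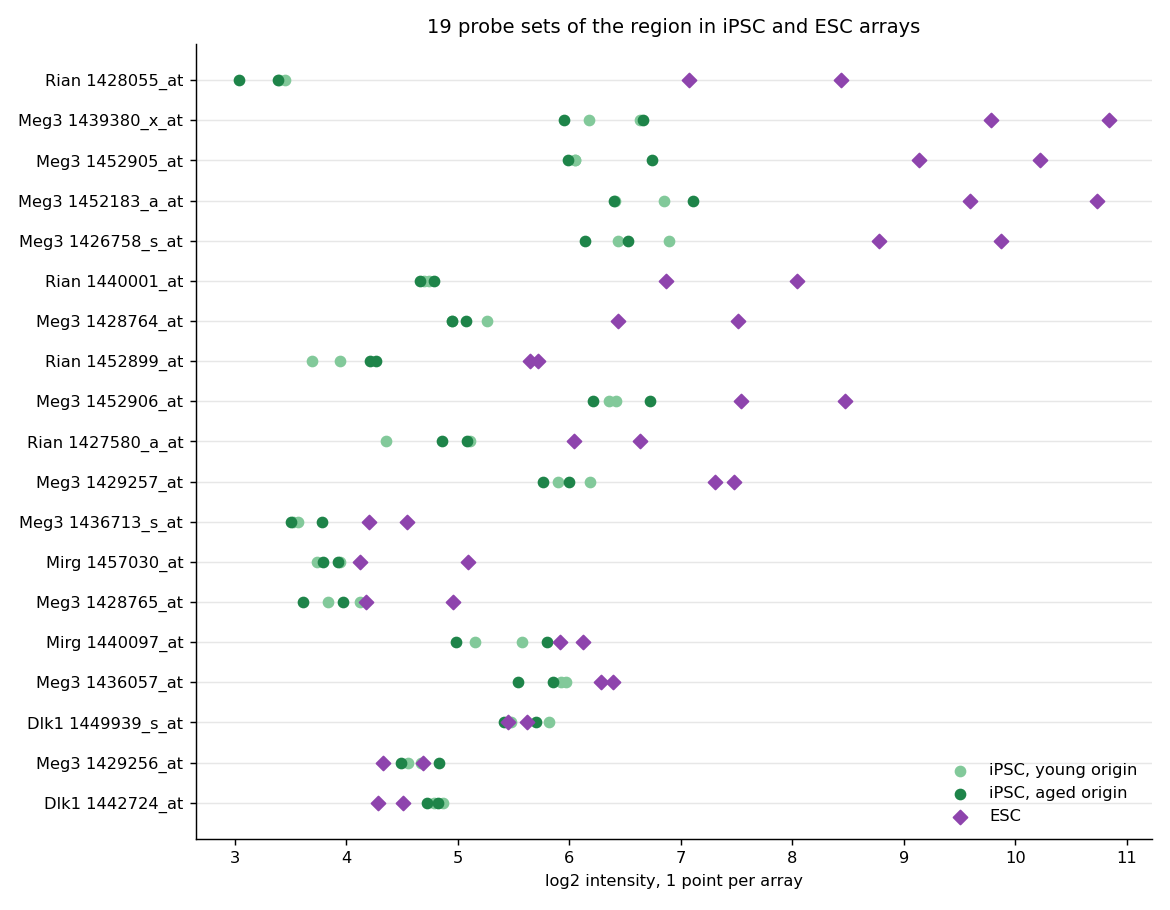
Log2 intensity of all 19 member probe sets in the 4 iPSC arrays (circles, by origin) and the 2 ESC arrays (diamonds), ordered by the difference of means. The Meg3 and Rian probe sets at the top are 2.71-fold to 21.6-fold apart without overlap, and the leading Dlk1 probe set near the bottom is 0.07 apart on the log2 scale with overlap.

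**Figure D3:**
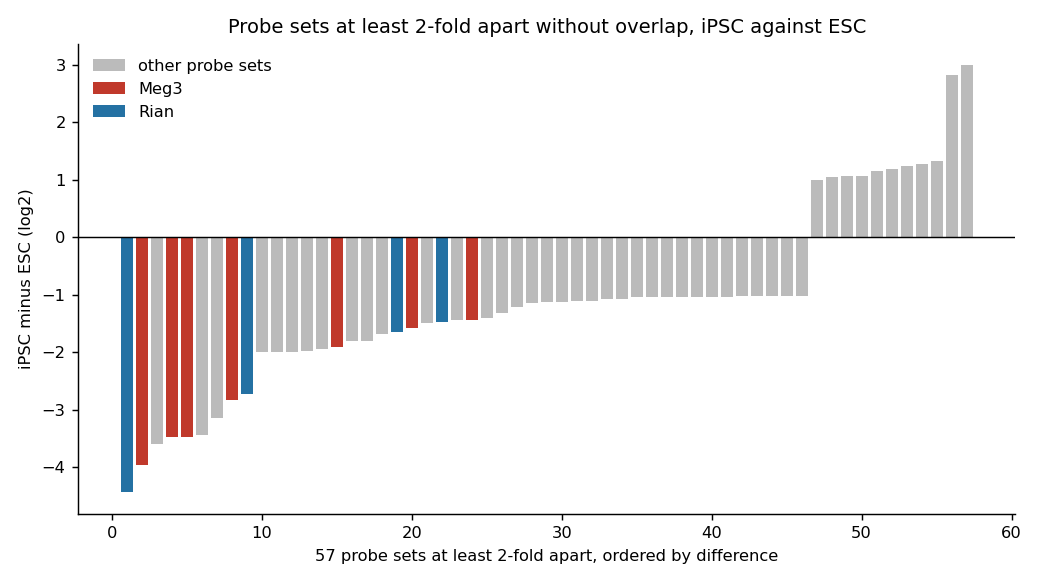
The 57 probe sets at least 2-fold apart without overlap between iPSC and ESC, ordered from lowest to highest in iPSC. Each bar is the iPSC minus ESC difference in log2 units, coloured for Meg3 and Rian, which hold 11 of the 46 bars below 0 and 0 of the 11 above it.

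The ESC arrays of the different suppliers were not alike at this region. Of the 11 Meg3 probe sets, 7 were higher by at least 0.5 log2 units in the Primogenix array than in the Open Biosystems array, with a median difference of 0.93. For Rian, 3 of 4 were, with a median difference of 0.88, and for Dlk1 0 of 2 were, with a median of -0.19. Over all 33778 probe sets tested, 3.20% were higher by that much and the median difference was 0.03. With 1 array per supplier this comparison has no test. The mean over 19 measured fibroblast markers was 6.68 in the Open Biosystems array and 6.67 in the Primogenix array, and 11 of the 19 were higher in the Primogenix array. Single markers differed in both directions, from -0.76 for Twist1 to 0.47 for Lox. The part of feeder RNA in this difference was not tested.

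The feeder markers were slightly lower in iPSC than in ESC. The mean over the 19 measured markers was 6.25 to 6.62 in the 4 iPSC arrays and 6.67 to 6.68 in the ESC arrays, with 15 of the 17 above the filter lower in iPSC, a median difference of -0.30 and 0 past 2-fold. In 5 of the 19, Col3a1, Col5a2, Dcn, Fn1 and Lox, every iPSC array was below both ESC arrays. Of the 19, 16 were above the 25th percentile in all 6 arrays and 1, the matrix proteoglycan Lum, was under it in all 6. Col1a2, a collagen chain made by fibroblasts, read 7.09 to 8.33 in iPSC and 8.03 and 8.40 in ESC. Array 2 of the young-origin iPSC had the highest feeder mean of the iPSC at 6.62, with 8 of the 19 markers below both ESC arrays. Its leading Meg3 level was 6.05, as was that of array 1 of that group, with a feeder mean of 6.25. The part of feeder RNA in the Meg3 and Rian differences was not tested.

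Genes flanking the region were within 2-fold between iPSC and ESC. Of 15 measured flanking genes, 0 were at least 2-fold apart without overlap, and their median difference was 0.03, against a median of -0.00127 over all probe sets above the filter. Evl, an actin regulator, differed by 0.07, Yy1, a zinc-finger transcription factor, by -0.03, Slc25a29, a mitochondrial carrier, by 0.11, and Wars, the tryptophanyl-tRNA synthetase, by -0.14.

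Among 17 enzymes and cofactors that write, read or remove methylation at imprinted loci, 0 were 2-fold apart between iPSC and ESC. Of these, 12 were lower and 5 higher in iPSC, with a median of -0.05. Arrays did not overlap for Tet1, Tet2, Dnmt3l, Uhrf1 and Eed, lower in iPSC, and for Aff3, higher in iPSC. Tet2 read 8.32 to 8.74 in iPSC and 8.96 to 9.17 in ESC. Dnmt3a, a de novo DNA methyltransferase, differed by -0.05, Dnmt1, the maintenance methyltransferase, by 0.03, Eed, a Polycomb subunit, by -0.19, and Tet1, which oxidises methylcytosine, by -0.51. Of 17 other imprinted genes listed and above the filter, 1 was lower by 2-fold and 0 were higher, with a median of -0.07. Their differences were negative in 14 and positive in 3. Cdkn1c, a cell cycle inhibitor, differed by -0.01 and Igf2, a growth factor, by -0.14. The 1 gene past the bound was Zdbf2, named after its values were seen. It read 7.05 to 7.33 in iPSC and 9.33 and 9.04 in ESC, a difference of -2.00. Mcts2, an imprinted retrogene outside this list and also named after its values were seen, differed by -3.44.

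Of 13 Notch pathway genes and 6 thyroid hormone genes above the filter, which are the pathways of Dlk1 and Dio3, 0 were 2-fold apart between iPSC and ESC. Rbpj, the DNA-binding effector of Notch, differed by -0.01 and Jag1, a Notch ligand, by -0.03.

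Set against steady-state HSC, iPSC and ESC gave different pictures of the region. Between iPSC and steady-state HSC, 35.3% of 33778 probe sets were at least 2-fold apart without overlap, and 19.9% of the 33778 were lower in iPSC by that rule. The region had 3 of 15 probe sets in that lower class, a share near the background: Meg3 1452905_at at -3.40, Rian 1452899_at at -2.41 and Meg3 1439380_x_at at -2.23. When array 1 of the young steady-state HSC was left out, the count was 5.

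Between ESC and steady-state HSC, 15.5% of probe sets were higher in ESC and 19% lower by the same rule, and the region had 10 of 17 higher and 0 lower. Rian 1428055_at was 3.78 higher, Meg3 1452183_a_at 2.20 higher, Meg3 1452906_at 2.04 higher and Mirg 1440097_at 1.16 higher. Rian 1428055_at, counted in the 10, averaged 3.98 in steady-state HSC and was under the filter among the HSC arrays. It passed the filter here through the higher group, the ESC. The leading Meg3 probe set was an exception, with a difference of 0.07 and overlapping arrays, and the leading Rian probe set was 0.75 lower in ESC. Probe sets of the same gene thus did not give the same ratio between HSC and ESC, and the transcripts behind each probe set were not separated here.

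Transplanted HSC were lower than steady-state HSC in some probe sets of every measured gene of the region. Median intensities were 50.2 to 51.8 in the transplanted arrays and 43.4 to 45.0 in the steady-state arrays. An effect of transplantation and a difference in handling between these array sets cannot be told apart here. The levels of these arrays were known when the region was chosen, so the members' values are a description. In limma's fit of all 10 HSC arrays, 22486 of 33778 probe sets passed an adjusted p under 0.05 (66.6%), 36% of the total lower and 30.6% higher in transplanted HSC. Of the 14 member probe sets above the filter, 9 were among the lower and 0 among the higher, counts that carry no test of the region. The median difference was -0.68 over the 14 members and -0.09 over all probe sets. The median over all probe sets was -0.29 when each array was centred on its median, and 9 members were among the lower under that scaling too.

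The probe sets of Meg3 differed in size. The leading one was 9.61 ± 0.67 (SD, n = 6) in steady-state and 5.47 ± 1.03 (SD, n = 4) in transplanted HSC, a difference of -4.13 (SE 0.43) or 17.6-fold, and 45 of the 33778 probe sets, 0.133%, had a lower value. It was -4.63 without array 2 of the aged transplanted HSC. For Meg3 1452183_a_at, steady-state arrays read 7.04 to 8.75 with a median of 8.05, and transplanted arrays read 5.13, 4.67, 5.24 and 5.41. The groups did not overlap, and the difference was -2.84 (SE 0.27), with 1.65% of all probe sets lower. Meg3 1439380_x_at differed by -2.50, with 2.92% lower. The other 6 Meg3 probe sets in the fit lay amid all probe sets, where 30.3% to 61% were lower: 1426758_s_at differed by -0.69, 1428764_at by -0.37 and the remaining 4 by -0.06 to 0.22.

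Rian was lower as well. Its leading probe set read 6.06 to 6.96 in steady-state HSC with a median of 6.42 and 4.97, 4.76, 4.58 and 4.75 in transplanted HSC, without overlap, a difference of -1.67 (SE 0.18). Rian 1440001_at averaged 4.14 in transplanted and 5.38 in steady-state HSC, a difference of -1.24. Of its 4 transplanted arrays 3 were under their 25th percentile. It passed the filter through the higher group and is counted among the lower members. Rian 1427580_a_at, under the filter, read 4.68 to 5.75 in steady-state and 2.93 to 3.04 in transplanted HSC.

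Mirg and Dlk1 differed by smaller amounts, each by 1 of its 2 probe sets. Mirg 1440097_at read 4.69 to 5.02 in steady-state HSC and 4.04 to 4.52 in transplanted HSC, a difference of -0.66 (SE 0.14). Of the 4 transplanted arrays 3 were under their 25th percentile, and 0 of the 6 steady-state arrays were, so it passed the filter through the higher group. Dlk1 1449939_s_at read 5.19 to 6.48 in steady-state HSC with a median of 5.55, and 4.91, 4.70, 5.07 and 4.69 in transplanted HSC, a difference of -0.84 (SE 0.18). For these 2 probe sets, every transplanted array lay below every steady-state array. The groups overlapped for the others: Dlk1 1442724_at read 4.20 to 5.11 in transplanted and 4.65 to 5.22 in steady-state HSC, a difference of -0.21, and Mirg 1457030_at, under the filter, read 3.49 to 3.87 and 3.54 to 3.77.

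**Figure D4:**
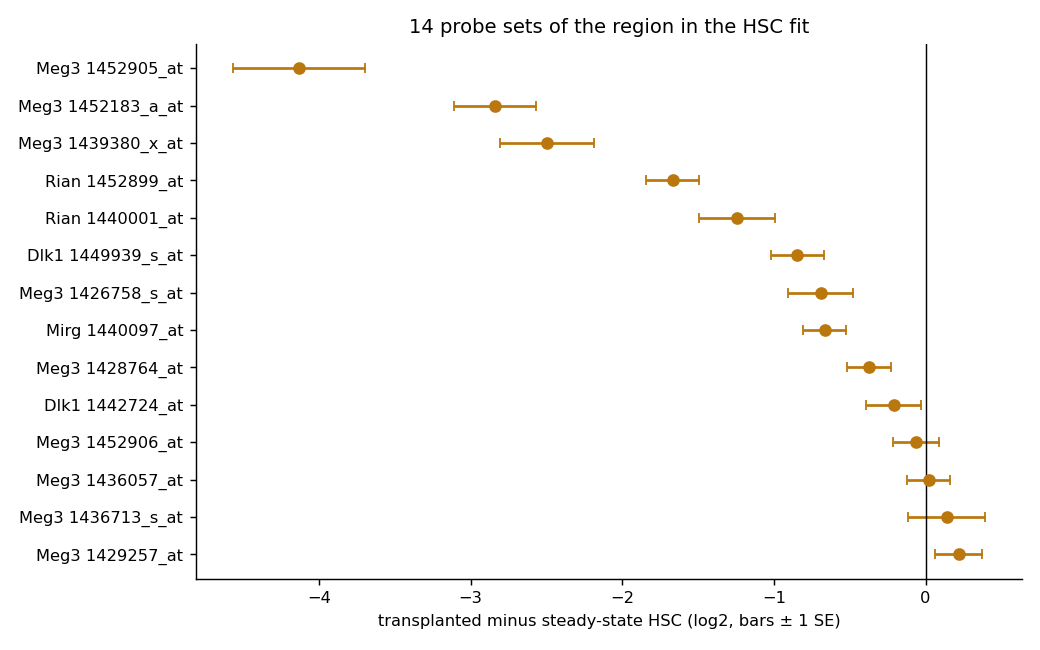
Transplanted minus steady-state HSC in log2 units for the 14 member probe sets above the filter, with bars of 1 SE from limma. Of these, 11 lie below 0, down to -4.13 for Meg3 1452905_at, and 3 Meg3 probe sets lie above it, up to 0.22.

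HSC markers fell in the same contrast, by limma's test. Of 13 measured, 12 fell and 0 rose, with a median of -1.74. Hlf, a transcription factor of HSC, fell by 2.59 and Hoxa9, a homeobox factor, by 2.58, Meis1, its cofactor, by 2.12 and Gata2 by 1.43. The mean over 10 mature blood markers was 6.31 to 6.86 in steady-state HSC and 5.48 to 6.20 in transplanted HSC. The part of these marker changes in the lower Meg3 and Rian levels was not tested.

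Genes around and upstream of the region moved in both directions between transplanted and steady-state HSC. Of 15 flanking genes, 3 rose and 5 fell, among them Yy1 at -1.15, Wars at -1.53, Slc25a29 at -1.07 and Evl at 1.13. Of 17 methylation regulators, 6 rose and 7 fell. Dnmt3a rose by 4.98 (SE 0.17, limma adjusted p = 1.99e-08) and Dnmt1 by 1.45, while Eed fell by 2.05 and Tet1 by 1.71. Of 16 other imprinted genes, 4 rose and 10 fell, with a median of -1.01, and the 4 with the smallest p were Cdkn1c at -2.71, Ndn at -2.09, Igf2 at -1.45 and Sgce at -2.56.

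Of 11 tested Notch pathway genes, 6 fell and 0 rose, with a median of -0.33. Rbpj fell by 2.72, Jag1 by 1.59, the receptor Notch3 by 1.02 and the ligand Dll1 by 0.81. Of 6 thyroid hormone genes, the receptor genes Thrb at 1.45 and Rxra at 0.46 rose, and the receptor gene Thra fell by 0.58.

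Age was tested in each setting, and no member probe set passed in any of them. In steady-state HSC, 203 of 33778 probe sets passed (0.601%), and 0 of 14 members did. In transplanted HSC, 263 passed (0.779%) and 0 of 14 members did. For the difference between these age effects, 18 passed (0.0533%) and 0 of 14 members did. In iPSC, 4 passed between aged and young origin (0.0118%) and 0 of 16 members did. At an unadjusted p under 0.05 from limma, the members numbered 1, 0, 0 and 1 in the same order, against 4.96%, 13.9%, 9.05% and 4.49% of all probe sets. The numbers of all probe sets passing depended on single arrays: they ran from 85 to 280 in steady-state HSC, 52 to 2620 in transplanted HSC, 0 to 1038 for the difference and 0 to 5 in iPSC when each array was left out in turn, and the members remained at 0 in each. Aged and young arrays did not overlap for 8 of the 19 members in transplanted HSC and 3 in iPSC, with 2 arrays against 2, where 32.1% and 32.4% of all 45037 probe sets did not. For 2 members they did not overlap in both settings with opposite directions, as for 5.09% of all probe sets.

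The member nearest to an age difference was Dlk1 in steady-state HSC. Its leading probe set read 5.41, 5.22 and 5.19 in young and 5.70, 6.14 and 6.48 in aged HSC. The aged arrays were all above the young ones, but the probe set did not pass, with a difference of 0.83 (SE 0.22), an unadjusted p of 0.00405 and a limma adjusted p of 0.282, which ranged from 0.0808 to 0.926 over the alternatives. The second Dlk1 probe set differed by 0.29 (SE 0.23). In transplanted HSC the leading Dlk1 probe set differed by 0.08 (SE 0.27), and the test of the difference between both age effects gave -0.76 (SE 0.35, limma adjusted p = 0.574). Dlk1 thus did not pass in either setting or for the difference.

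The leading Meg3 probe set differed with age by 0.37 (SE 0.55, limma adjusted p = 1.00) in steady-state HSC. Leaving out each array in turn gave -0.09 to 0.68, with -0.09 when array 1 of the young HSC, the lowest of the 6, was left out. Of the 14 tested members, 11 had a positive difference in steady-state HSC, with a median of 0.28 against -0.02 for all probe sets. Most of the 14 are probe sets of Meg3 and so are not independent, and this count was not tested. In transplanted HSC the leading Meg3 probe set differed by 1.09 (SE 0.67, limma adjusted p = 0.523) and by 0.09 without array 2 of the aged group. That array read 7.02 for 1452905_at, and 6.54 and 5.41 for 1439380_x_at and 1452183_a_at, where its partner read 5.91 and 5.24. Its mean over the HSC markers was 9.65, the highest of the 4 transplanted arrays, and its mean over mature blood markers was the highest as well at 6.20.

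In iPSC, the leading Meg3 probe set differed between aged and young origin by 0.32 (SE 0.33, limma adjusted p = 0.994). The spread in this fit was pooled with the ESC arrays. The gap between the 2 ESC suppliers, 9.14 and 10.22 for this probe set, therefore enters the SE and p-values of the iPSC comparison. The leading Rian probe set differed by 0.42 (SE 0.14) with an unadjusted p of 0.0165 and a limma adjusted p of 0.994, and all 4 values were under the 25th percentile of their arrays. Mirg differed by 0.03 (SE 0.26) and Dlk1 by -0.09 (SE 0.17). Low Meg3 and Rian levels were thus measured in iPSC of both origins.

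**Figure D5:**
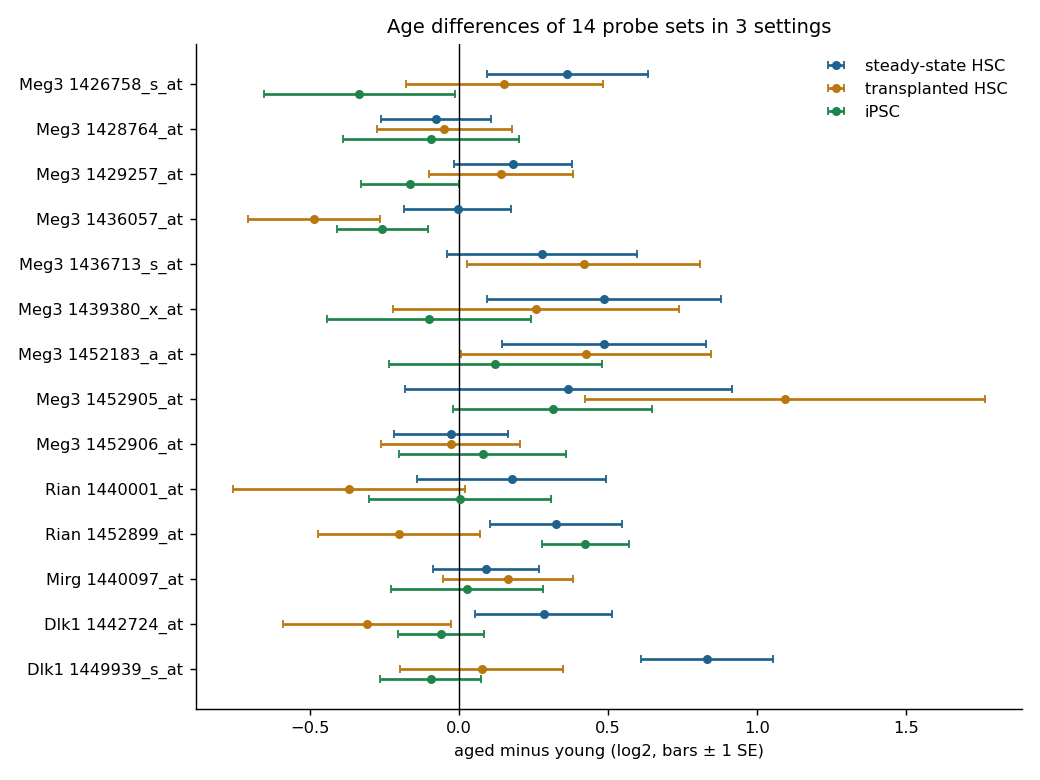
Aged minus young differences in log2 units, with bars of 1 SE from limma, for the 14 member probe sets tested in HSC, in steady-state HSC, transplanted HSC and iPSC (where 13 of these passed the filter on dim values). No adjusted p was under 0.05, and Dlk1 1449939_s_at in steady-state HSC was the difference with the smallest unadjusted p at 0.00405.

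Among the related lists, age changed few genes. In steady-state HSC the flanking gene Evl fell by 1.63 (SE 0.21, limma adjusted p = 0.00852), the other 14 flanking genes did not pass, and the Notch ligand Jag1, 1 of 11 tested Notch genes, rose by 2.20 (SE 0.26, limma adjusted p = 0.00480). In transplanted HSC 1 of 17 methylation regulators, Eed, fell by 0.97 (limma adjusted p = 0.0479). Of 7 tested mature blood markers, 1 passed in transplanted HSC, Csf1r, with an aged minus young difference of -3.61 (SE 0.58, limma adjusted p = 0.0323). For Csf1r the young transplanted arrays read 5.75 to 7.95 and the aged ones 3.21 to 3.27. The part of this marker difference in the age comparison of the members was not tested. In iPSC 0 genes of these lists passed.

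Over the 16 arrays, the genes outside the region whose leading probe set followed that of Meg3 most closely were Khdc4 (Pearson r = 0.921), Ankrd16 (0.896), Rc3h2 (0.880), Fbxl4 (0.876) and Slc18b1 (0.870), out of 14905 genes. Rian ranked 61 with r = 0.837, Dlk1 had r = 0.531 and Mirg 0.376. The arrays fall into 4 cell classes, so these values mostly describe differences between classes, and they carry no test. Over the 6 iPSC and ESC arrays the closest were Cenpc1 (0.999), Arhgap35 (0.989), Uqcrfs1 (0.988), Actg1 (0.987) and Fam43a (0.987), and Rian ranked 84 with r = 0.953. Their iPSC and ESC means lay closer together than those of Meg3, for example 8.51 in iPSC and 8.78 in ESC for Cenpc1.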

How the data were processed

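The data were 16 Affymetrix arrays of mouse RNA in 1 colour. Per the labels, RNA came from a QIAGEN microRNeasy extraction and was hybridised as biotinylated cRNA. The values were the linear intensities that the authors deposited as 1 table, from 4.53 to 31493 with 0 missing. Their summarisation and normalisation are not given in the sources used here. Log2 was taken with no pseudocount. Of the probe sets, 64 controls were left out, 34945 had 1 symbol in GEO's platform annotation, 932 had several and 9160 were not listed. Among those with several, 1 named a gene of the region and was left out.

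Each probe set was fitted with limma 3.58.1 in R 4.3.3 (lmFit and eBayes), leaving out the lowest 25% by mean, for the 10 HSC arrays (6 residual degrees of freedom) and for the 6 iPSC and ESC arrays (3). Calls used a Benjamini-Hochberg adjusted p under 0.05 over all 33778 probe sets tested. The fits were tested on simulated data. Differences between iPSC, ESC and HSC were described by a 2-fold change with no overlap. The files hold no detection calls, and the number of arrays limits the precision. The members and lists were chosen with earlier results of these data known. Named genes were all members, the genes with the smallest p in each list (4 at most), and the 5 most like Meg3. Alternatives were quantile normalisation, centring on the median, no filter or one at the 50th percentile, 1 probe set per gene, a pseudocount of 16, an intensity trend, all 16 arrays or only the compared groups in the fit, replicate number as a block and leaving out each array. Crossed replicate numbers were added after seeing the data. Same-numbered steady-state arrays had deviations correlated at -0.02, -0.37 and 0.20, so the numbers were not taken to pair the samples. In the steady-state arrays numbered 1, Klf4 read 11.13 (young) and 11.40 (aged), against 6.01 to 7.83 in the others. Whether same-numbered arrays share a preparation was not tested.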

Additional observations from a re-analysis of the deposited data

Results flagged for a closer look

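The age differences of 2 Rian probe sets pointed in opposite directions in transplanted HSC and in iPSC, with no overlap between aged and young arrays in either. With 2 arrays against 2, 5.09% of all 45037 probe sets did so, against 2 of the 19 members. For Rian 1452899_at the aged minus young difference was -0.20 in transplanted HSC, where young arrays read 4.97 and 4.76 and aged arrays 4.58 and 4.75, and 0.42 in iPSC, where they read 3.94 and 3.69 against 4.21 and 4.27. For Rian 1428055_at it was 0.34 in transplanted HSC, with 3.08 and 3.07 against 3.38 and 3.46, and -0.21 in iPSC, with 3.40 and 3.45 against 3.39 and 3.04. The difference between the settings was not tested for either. The probe sets of 1 gene also opposed each other within each setting. The 4 iPSC values of 1452899_at and all 8 values of 1428055_at were under the 25th percentile of their arrays.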

How the results depend on the processing

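With 2 or 3 arrays a group and no detection calls, dim values and small age differences are the least certain. The count of members 2-fold lower in iPSC than in ESC was 10 to 11, and that of members called with age was 0, under every alternative run. Over the 45 results examined, 656 alternative values kept their direction and side of the threshold or stayed within the spread, while 58 moved beyond it or, for counts, by over 1.5 times, 2 lost their call and 11 tested differences changed sign.

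For transplanted minus steady-state HSC, 9 member probe sets were called, a count that describes them and gives no test of the region. The count became 5 with a filter at the 50th percentile and 4 with 1 probe set per gene. In the latter, 9534 calls stood in place of 22486, as fewer rows were tested. With the replicate block the count was 4, and Mirg at -0.53 and Dlk1 at -0.56 were not among the called. The numbers were not taken to pair these samples. Leaving out 1 array gave 8 to 10 member calls, and the other alternatives ran from 4 to 13.

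All probe sets called with age in steady-state HSC numbered 203, and 363 with all 16 arrays in the fit, 62 with the replicate block, 401 with only the compared arrays and 85 to 280 without 1 array. In transplanted HSC, 263 became 98 at the 50th percentile, 1436 with all 16 arrays, 2 with the replicate block, 8 with crossed numbers (the same-number correlation was -0.14), 0 with only the compared arrays and 52 to 2620 without 1 array. For the difference of the age effects, 18 became 0 at the 50th percentile, 36 with a pseudocount of 16, 292 with all 16 arrays, 0 with the replicate block and 0 to 1038 without 1 array. In iPSC, 4 became 1 under quantile normalisation, at the 50th percentile, with 1 probe set per gene and with the pseudocount, 11 with crossed numbers (the same-number correlation was -0.12) and 0 to 5 without 1 array. For iPSC minus steady-state HSC, 3 members were 3 to 5 without 1 array. The causes were not tested.

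Among tested results, signs turned in uncalled age differences with 1 array left out. Among described ones, they turned for Dlk1 in all 3 cell class comparisons and for Meg3 between ESC and steady-state HSC, where the arrays overlap. For Meg3 the range without 1 array was -0.0927 to 0.68 in steady-state HSC, -0.28 to 1.73 for the difference of the age effects and -0.057 to 0.69 in iPSC. For Mirg it was -0.0749 to 0.41 in transplanted HSC, -0.17 to 0.32 for the difference and -0.38 to 0.43 in iPSC. For Dlk1 it was -0.11 to 0.27 in transplanted HSC and -0.26 to 0.0713 in iPSC.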

Other observations

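Outside the region, 16 genes with a single symbol were lower in iPSC than in ESC by at least 2-fold without overlap, and 19 further probe sets had no single symbol. These genes were named after their values were seen. Mcts2, an imprinted retrogene, averaged 5.44 in iPSC and 8.88 in ESC, a difference of -3.44. Cyb5r1, a reductase, differed by -1.98, Btg2, an antiproliferative factor, by -1.80 and Cd68, a macrophage and lysosomal protein, by -1.67. In the other direction, AI662270 was higher in iPSC by 2.99 and 2.82 in its 2 probe sets, Mycn, a transcription factor of the Myc family, by 1.28 and Rhox5, an X-linked homeobox gene, by 1.18. These differences rest on 4 iPSC and 2 ESC arrays and were not tested.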
